A study of Mus musculus with 9 samples.

Results

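The extracellular matrix of dermal fibroblasts was followed through 47 listed genes. They encode fibrillar and fibril-associated collagens, small proteoglycans, elastic fibre proteins, matricellular glycoproteins, the enzymes that process and crosslink them, matrix proteases with their inhibitors, 2 growth factor receptors of mesenchymal cells and 1 transcription factor. The genes were taken by symbol, and each was read from its brightest probe set, the small group of array oligonucleotides that reports 1 transcript, among those assigned to exactly 1 gene. Of the 47 listed genes, 45 were measured, out of 18193 measured genes in all. Fbn1 and Loxl2 were not analysed here: no probe set of the annotation used here named Fbn1 alone, and those of Loxl2 also carried another gene symbol.

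Epidermis was compared between 5 mice in which Alox12b had been inactivated, called inactivated mice, and 4 control mice, with 1 Affymetrix array per mouse. Inactivated mice (genotype p/p +/cre) had 2 floxed Alox12b alleles and carried a transgene for CreERT2, a Cre recombinase that works only once tamoxifen is present, under the promoter of keratin 14, a keratin of basal keratinocytes. Controls (genotype p/p +/+) were littermates with the same floxed alleles and no Cre, so in this design the effects of losing Alox12b and of carrying an active Cre cannot be told apart. All mice had been crossed for 5 generations into the hairless SKH1 background, were 8 weeks old, and received 3 intraperitoneal injections of 1 mg tamoxifen in sunflower seed oil, with tissue taken 6 days after the treatment. Alox12b encodes 12R-lipoxygenase, an enzyme of the differentiated epidermis that is needed for the lipid barrier of the skin. The keratin 14 promoter is active in keratinocytes and not in dermal fibroblasts, so the fibroblasts themselves were not the cells aimed at. The 1 Alox12b probe set read 10.07, 10.17, 10.04, 9.67 and 9.50 in inactivated mice 1 to 5, against 9.40, 9.33, 9.20 and 9.19 in controls 1 to 4, and was thus higher where the gene had been targeted, by 0.61 ± 0.14 (SE, log2 scale, limma adjusted p = 0.00694). Whether this probe set reads the part of the gene that Cre removes was not given in the sources used here, so it neither checks nor contradicts the labels, and the groups below are the labelled ones.

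Dermal fibroblasts build the matrix below the epidermis. Collagens I, III and V form the load-bearing fibrils, small leucine-rich proteoglycans coat these fibrils and regulate their width, elastin on a scaffold of microfibrils gives recoil, and lysyl oxidases crosslink both collagen and elastin. Epidermal keratinocytes make little of this set and mainly produce the collagens and laminins of their own basement membrane. The sheets measured here had been scratched off frozen skin, and matrix transcripts were bright in them: Col1a2 reached 13.18 on a log2 scale whose highest value on any array was 13.53. In bulk tissue of this kind, fewer fibroblasts on the sheet and less RNA per fibroblast cannot be told apart.

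Matrix transcripts were lower in the inactivated mice. Of the 45 measured genes, 37 fell, 2 rose and 6 did not pass the test (limma with Benjamini-Hochberg adjustment over all 45037 probe sets, adjusted p of 0.05). The background was a fall in 18.9% of all measured genes and a rise in 15.5%. The median difference over the 45 genes, inactivated minus control, was -1.01 on the log2 scale, against 0.03 over all genes. A fall of at least 2-fold was found in 23 of the 45, where 3.34% of all genes fell as far. In 27 of the 45, or 60%, every inactivated mouse lay below every control, which was so for 17.6% of all genes. The spread between mice of a group, as the median SD over the 45 genes, was 0.38 among inactivated mice and 0.30 among controls. Differences below are log2 values with their standard errors from the same fit, on 5 inactivated and 4 control mice.

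**Figure D1:**
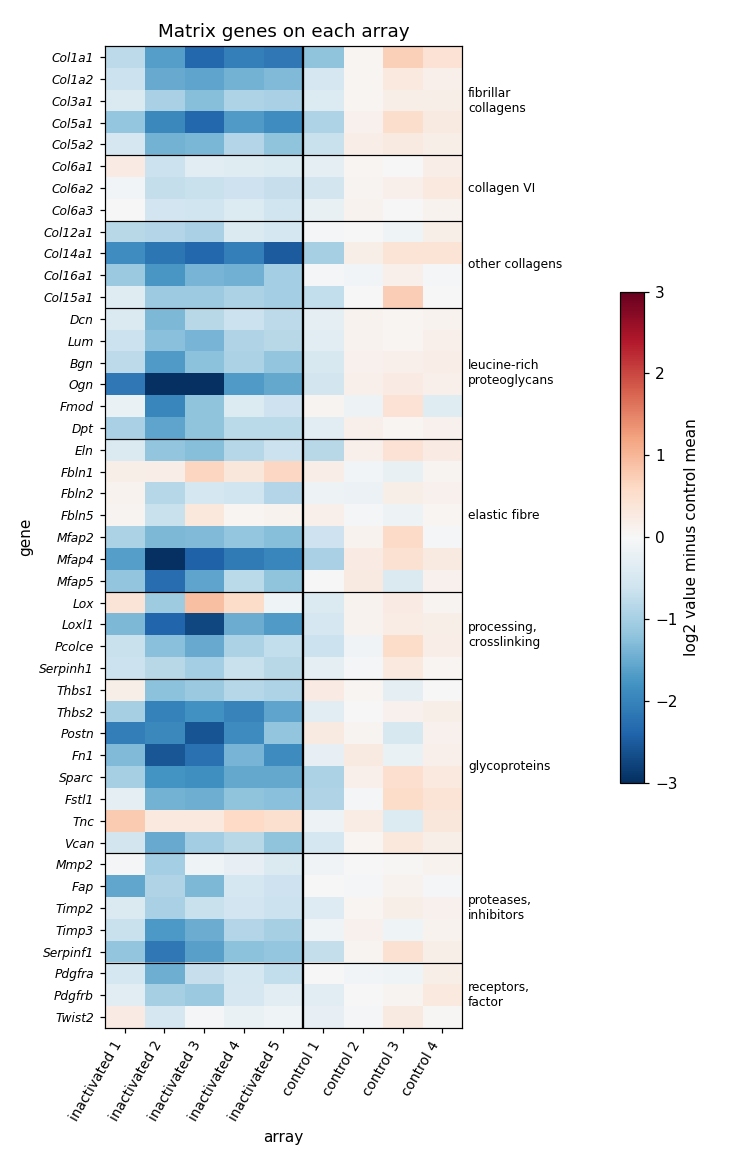
Each row is 1 of the 45 measured matrix genes and each column 1 array, with the 5 inactivated mice left of the 4 controls; colour is the log2 value minus the mean of the controls, and the scale ends at 3 in either direction. Blue, for lower values, fills most of the inactivated columns, palest in inactivated mouse 1, and control 1 is bluer than the other controls in most rows.

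All 5 fibrillar collagens fell, with a median difference of -1.30. Col1a2, which encodes the second chain of collagen I, read 12.24, 11.36, 11.30, 11.45 and 11.55 in inactivated mice 1 to 5, against 12.37, 12.94, 13.18 and 13.02 in controls 1 to 4. Its difference was -1.30 ± 0.21 (adjusted p = 0.00115). Inactivated mouse 1 was the highest of its group by a wide margin and came within reach of control 1, the lowest control, without overlap. Col5a1, whose collagen V chain nucleates collagen I fibrils, read 7.28, 6.50, 6.08, 6.75 and 6.59 in the inactivated mice, against 7.52, 8.57, 8.96 and 8.71 in the controls. The groups did not overlap, control 1 was again the lowest control, and the difference was -1.80 ± 0.29 (adjusted p = 0.00124), a 3.48-fold fall. Col1a1, the other chain of collagen I, fell by 1.80 ± 0.40 (adjusted p = 0.0073), with inactivated mouse 1 above control 1. Collagen III, a finer fibril collagen of loose dermis, fell by 0.91 ± 0.17 (Col3a1, adjusted p = 0.00269), and Col5a2 fell by 1.07 ± 0.23 (adjusted p = 0.00554). The brightest probe sets of Col1a2 and Col3a1 lay close to the top of the array range. The dimmer probe sets of these genes differed by -1.95 and -1.92 for Col1a2 and by -1.78 for Col3a1. Dimmer probe sets of other members ran the other way, with -0.51 against -0.81 for Dcn and -0.54 against -0.88 for Eln.

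The promoter of Col1a2 is shown as an example of a fibrillar collagen gene in which the groups did not overlap. The window of 300 bases, from 250 before to 50 after the annotated start of the gene, is taken from RefSeq on build GRCm38.p6, plus strand, chr6:4505368-4505667. Capitals mark the pentamer CCAAT and its reverse complement ATTGG, which lie on this strand 109 bases before the start and at the start itself.
Col1a2 promoter: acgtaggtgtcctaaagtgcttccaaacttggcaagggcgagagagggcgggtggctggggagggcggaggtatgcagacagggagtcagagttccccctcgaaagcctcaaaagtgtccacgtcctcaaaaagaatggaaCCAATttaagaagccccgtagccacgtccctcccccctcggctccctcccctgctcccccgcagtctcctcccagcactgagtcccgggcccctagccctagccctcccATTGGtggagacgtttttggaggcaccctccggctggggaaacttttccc
A window was found for 29 of the 45 measured genes. CCAAT or ATTGG occurred in 8 of the 29, or 27.6%, and in 37.6% of the windows of 27025 genes. The hexamer GGGCGG or its reverse complement CCGCCC occurred in 16, or 55.2%, against 35.1% of all windows.

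Collagen VI, a beaded microfibril that links cells to the fibrillar matrix, had the median nearest to 0 of the 9 roles, -0.43 over its 3 chains. Col6a3 read 9.81, 9.21, 9.19, 9.38 and 9.19 in the inactivated mice, against 9.57, 9.89, 9.81 and 9.89 in the controls, a difference of -0.43 ± 0.13 (adjusted p = 0.034). Col6a2 read 9.35, 8.73, 8.77, 8.81 and 8.74 in the inactivated mice, against 8.89, 9.52, 9.59 and 9.73 in the controls, a difference of -0.55 ± 0.18 (adjusted p = 0.0426). Both genes overlapped between the groups, because inactivated mouse 1 lay above control 1. Both calls were lost when any 1 of 7 of the 9 arrays was left out. Col6a1 differed by -0.30 ± 0.16 (adjusted p = 0.192) and did not pass.

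Collagens that decorate or bridge the fibrils fell in all 4 measured cases, with a median of -1.12. Col16a1, a fibril-associated collagen, read 7.12, 6.49, 6.82, 6.78 and 7.21 in the inactivated mice, against 8.19, 8.14, 8.37 and 8.19 in the controls. All controls lay close together and far above every inactivated mouse, and the difference of -1.34 ± 0.14 (adjusted p = 6.75e-05) had the lowest adjusted p of the 45 genes. Col14a1, which binds the surface of collagen I fibrils, read 4.27, 3.96, 3.77, 4.09 and 3.63 in the inactivated mice, against 5.14, 6.31, 6.56 and 6.54 in the controls. The groups were separated by a gap, with control 1 below the other controls, and the difference was -2.19 ± 0.27 (adjusted p = 0.000209), a 4.56-fold fall. The inactivated values of Col14a1 lay below the array medians of 4.34 to 4.42. Col12a1, a close relative of Col14a1, fell by 0.72 ± 0.12 (adjusted p = 0.00138), but its second probe set, only slightly dimmer, showed a difference of 0.00. Col15a1, a multiplexin of the basement membrane zone and vessels, fell by 0.90 ± 0.25 (adjusted p = 0.0226) and lost the call without control 2, 3 or 4.

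Among the small leucine-rich proteoglycans and dermatopontin, 5 of 6 fell and the median was -1.05. Lum encodes lumican, a keratan sulfate proteoglycan that limits fibril width. It read 10.46, 9.86, 9.72, 10.22 and 10.27 in the inactivated mice, against 10.80, 11.22, 11.19 and 11.26 in the controls. Dpt encodes dermatopontin, a small protein that joins decorin to the fibrils, and read 8.61, 7.99, 8.37, 8.78 and 8.78 in the inactivated mice, against 9.24, 9.74, 9.65 and 9.72 in the controls. Neither gene overlapped, and in both control 1 stood below 3 controls of nearly equal level. The differences were -1.01 ± 0.16 (adjusted p = 0.000941) for Lum and -1.08 ± 0.17 (adjusted p = 0.001) for Dpt. Ogn, which encodes osteoglycin, had the largest fall of the 45 genes, -2.41 ± 0.40 (adjusted p = 0.00127). It also had the largest SD of any member among the inactivated mice, 0.89. The inactivated values of Ogn lay below the array medians of 4.34 to 4.42, and its other probe set fell by less, with a difference of -1.54. Decorin and biglycan, paralogous proteoglycans that bind collagen and transforming growth factor beta, fell by 0.81 ± 0.17 (Dcn, adjusted p = 0.00447) and 1.17 ± 0.19 (Bgn, adjusted p = 0.00125).

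Fmod, which encodes fibromodulin, was the member that did not pass despite a sizeable difference. It read 4.93, 3.17, 3.92, 4.73 and 4.52 in the inactivated mice, against 5.22, 4.98, 5.57 and 4.77 in the controls, and inactivated mouse 1 lay among the controls. The difference was -0.88 ± 0.32 (adjusted p = 0.066). Without inactivated mouse 1 it was -1.05 and passed (adjusted p = 0.0332). The gene was dim and its 6 probe sets disagreed: the other 5 gave differences between -0.25 and 0.03, and each had an adjusted p above the threshold.

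**Figure D2:**
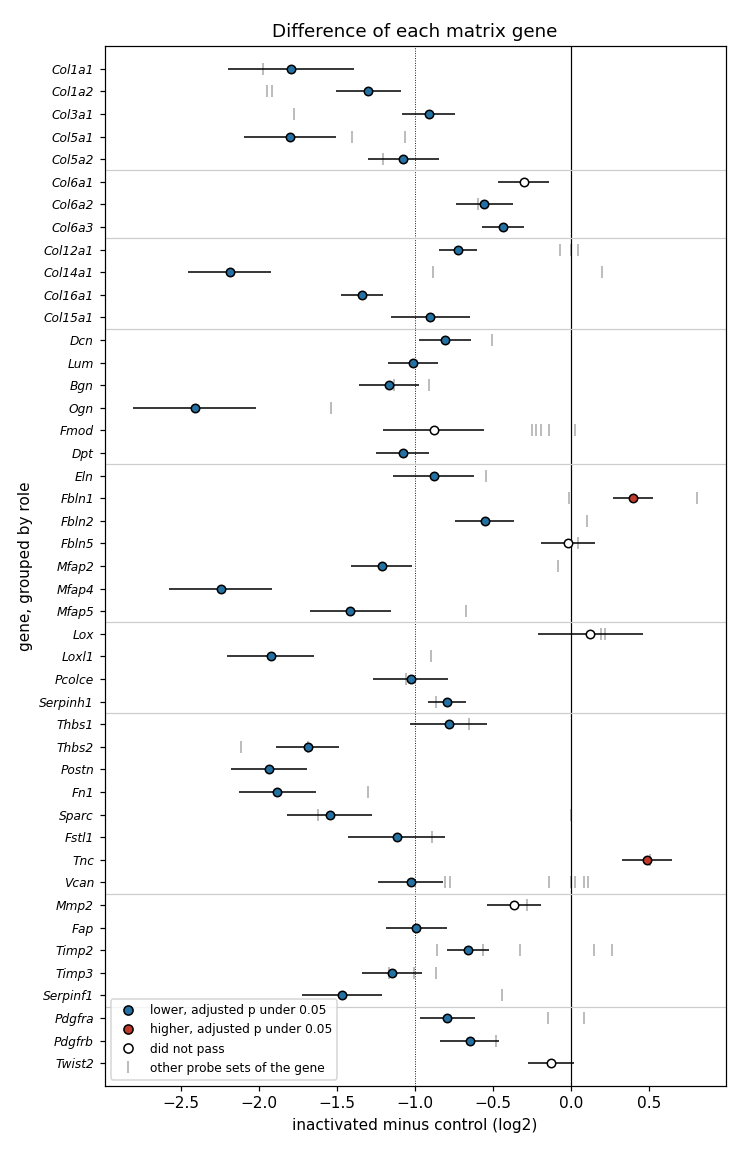
The horizontal axis is the difference, inactivated minus control, on the log2 scale, with bars of 1 standard error; rows are the 45 genes in the order of their roles, filled blue for a fall, red for a rise and white for genes that did not pass. Grey ticks are the other probe sets of a gene, and the dotted line marks a 2-fold fall; most points lie left of 0, Ogn farthest at -2.41, and the 2 red points are Fbln1 and Tnc.

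Of the 7 measured elastic fibre proteins, 5 fell, 1 rose and 1 did not pass, with a median of -0.88. Mfap4, which encodes a microfibril protein that binds elastin and collagen, read 7.47, 6.04, 6.70, 7.00 and 7.17 in the inactivated mice, against 8.14, 9.37, 9.59 and 9.39 in the controls. The groups did not overlap, inactivated mouse 2 was the lowest, and the difference was -2.25 ± 0.33 (adjusted p = 0.000652), a 4.74-fold fall. Mfap2, another microfibril protein, read 6.81, 6.43, 6.45, 6.61 and 6.48 in the inactivated mice, against 7.15, 7.87, 8.34 and 7.71 in the controls. Here too the groups were apart, with a difference of -1.21 ± 0.20 (adjusted p = 0.00115), although the second probe set of the gene, at a lower level, differed by -0.08 and did not pass. Mfap5 fell by 1.41 ± 0.26 (adjusted p = 0.00252). Elastin itself fell by 0.88 ± 0.26 (Eln, adjusted p = 0.0272). Its groups overlapped and the call was lost without inactivated mouse 2 or 3 or without control 2, 3 or 4.

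The fibulins, linkers of elastic fibres and basement membranes, did not move together. Fbln1 rose: it read 7.47, 7.51, 7.95, 7.64 and 7.93 in the inactivated mice, against 7.51, 7.21, 7.08 and 7.38 in the controls. Inactivated mice 3 and 5 were the highest and inactivated mice 1 and 2 did not exceed control 1, so the groups overlapped. The difference was 0.40 ± 0.13 (adjusted p = 0.0395), a second bright probe set gave 0.81 (adjusted p = 0.000268), and the third, at a low level, gave -0.01. The call on the brightest probe set was lost without inactivated mouse 3, 4 or 5 or control 2, 3 or 4, at an adjusted p of 0.0595 to 0.118. Fbln2 fell by 0.55 ± 0.19 (adjusted p = 0.0488), a call lost without any 1 of 8 of the arrays, inactivated mouse 1 being the exception. Fbln5 differed by -0.02 ± 0.17 (adjusted p = 0.947) and did not pass.

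Of the 4 measured enzymes and chaperones of collagen processing and crosslinking, 3 fell and the median was -0.91. Loxl1, a lysyl oxidase that acts mainly on elastin, read 6.16, 5.15, 4.79, 6.02 and 5.82 in the inactivated mice, against 7.00, 7.63, 7.73 and 7.69 in the controls. Serpinh1, which encodes the procollagen chaperone HSP47, read 8.26, 8.07, 7.88, 8.22 and 8.05 in the inactivated mice, against 8.59, 8.84, 9.18 and 8.96 in the controls. Neither gene overlapped between the groups. The differences were -1.93 ± 0.28 (adjusted p = 0.000605) for Loxl1 and -0.79 ± 0.12 (adjusted p = 0.000781) for Serpinh1. Pcolce, an enhancer of procollagen C-proteinase, fell by 1.03 ± 0.24 (adjusted p = 0.00909). Lox, the founding lysyl oxidase, did not pass, at 0.12 ± 0.34 (adjusted p = 0.811). It read 7.49, 6.05, 8.00, 7.65 and 6.98 in the inactivated mice, against 6.67, 7.22, 7.35 and 7.20 in the controls. These values were chosen for display after they were seen. The inactivated mice spread on both sides of the controls, with mouse 2 below all of them and mice 1, 3 and 4 above all of them.

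Of the 8 matricellular and adhesive glycoproteins, 7 fell and 1 rose, with the lowest median of the 9 roles, -1.33. Thbs2 encodes thrombospondin 2, a regulator of fibril assembly and vessel growth, and read 8.99, 7.96, 8.16, 7.98 and 8.40 in the inactivated mice, against 9.66, 10.00, 10.11 and 10.17 in the controls. Postn encodes periostin, which promotes collagen crosslinking, and read 8.48, 8.62, 7.97, 8.66 and 9.38 in the inactivated mice, against 10.83, 10.64, 10.07 and 10.69 in the controls. The groups were far apart in both genes, and in Postn control 1 was the highest control, unlike in most of the set. The differences were -1.69 ± 0.20 (adjusted p = 0.000174) for Thbs2 and -1.94 ± 0.25 (adjusted p = 0.000264) for Postn. Fibronectin, an adhesive protein on which other matrix assembles, fell by 1.89 ± 0.25 (Fn1, adjusted p = 0.000317). Sparc, a collagen-binding calcium protein, fell by 1.55 ± 0.27 (adjusted p = 0.002). The large proteoglycan versican fell by 1.03 ± 0.21 (Vcan, adjusted p = 0.00417). Fstl1 fell by 1.12 ± 0.31 (adjusted p = 0.0217), with overlap, and lost the call without control 3 or 4. Thbs1 fell by 0.78 ± 0.25 (adjusted p = 0.0375), with overlap, and kept the call without inactivated mouse 1 and without control 3 but not without any of the other 7 arrays.

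Tnc, which encodes tenascin C, a glycoprotein of wounds and of the dermis below thickened epidermis, was the second gene that rose. It read 8.30, 7.80, 7.81, 8.12 and 7.99 in the inactivated mice, against 7.37, 7.73, 7.10 and 7.86 in the controls. Control 4 lay above inactivated mice 2 and 3, so the groups overlapped, and control 3 was the lowest. The difference was 0.49 ± 0.16 (adjusted p = 0.0436), and the second probe set gave 0.51 (adjusted p = 0.383). The call was lost without inactivated mouse 1, 4 or 5 or control 1 or 3, at an adjusted p of 0.0645 to 0.122.

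**Figure D3:**
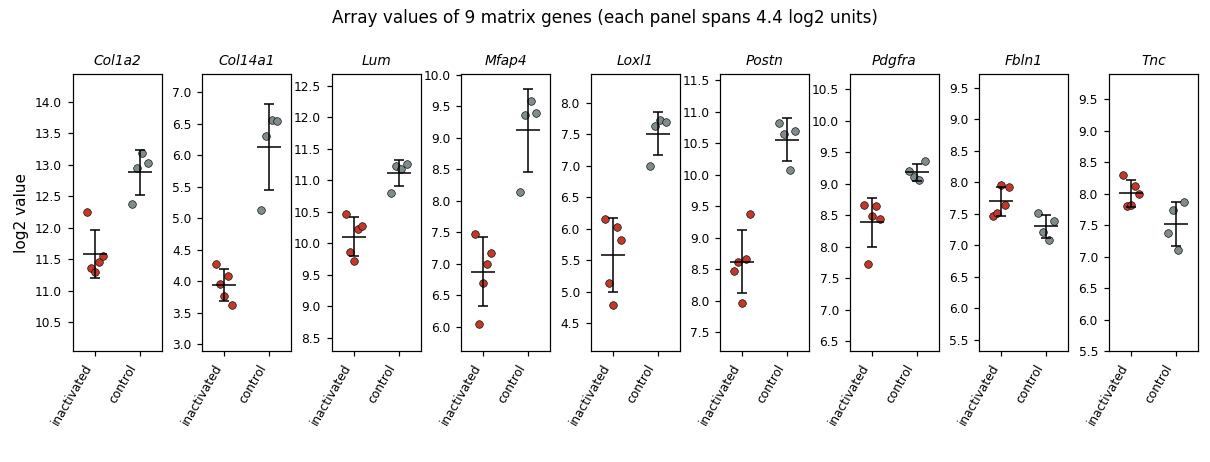
Points are single mice, the 5 inactivated left of the 4 controls in each panel, with the group mean and SD; the vertical axis is the log2 value and every panel spans the same number of log2 units. In Col1a2, Col14a1, Lum, Mfap4, Loxl1, Postn and Pdgfra all red points lie below all grey ones, while in Fbln1 and Tnc the points overlap with higher inactivated means.

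The promoters of Postn and Tnc are shown because these glycoproteins of the same class moved in opposite directions. Both windows cover 300 bases on build GRCm38.p6 from RefSeq, on the plus strand at chr3:54360857-54361156 for Postn and on the minus strand at chr4:64046887-64047186 for Tnc. Each gene had 2 annotated starts, and the one farther downstream was used. Capitals mark TATAA, found 26 bases before the start of Postn, and 205 and 27 bases before that of Tnc.
Postn promoter: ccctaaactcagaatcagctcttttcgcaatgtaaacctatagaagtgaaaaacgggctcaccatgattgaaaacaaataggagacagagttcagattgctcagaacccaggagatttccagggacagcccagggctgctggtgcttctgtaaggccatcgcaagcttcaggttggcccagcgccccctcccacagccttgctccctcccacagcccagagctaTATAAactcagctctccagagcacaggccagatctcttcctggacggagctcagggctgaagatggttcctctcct
Tnc promoter: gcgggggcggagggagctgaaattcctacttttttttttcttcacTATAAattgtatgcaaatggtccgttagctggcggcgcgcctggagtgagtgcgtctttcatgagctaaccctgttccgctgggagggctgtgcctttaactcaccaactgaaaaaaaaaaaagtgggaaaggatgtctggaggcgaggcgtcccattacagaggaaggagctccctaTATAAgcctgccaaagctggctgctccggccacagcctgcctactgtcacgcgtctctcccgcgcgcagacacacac
TATAA or its reverse complement TTATA was present in 8 of the 29 windows of the set, or 27.6%, and in 25.7% of all windows. The motif was present in the window of a gene that fell and of one that rose, at a position close to the start in both.

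Of the 5 proteases and inhibitors, 4 fell and the median was -0.99. Timp3 encodes an inhibitor of metalloproteinases that is itself bound to the matrix, and read 8.13, 7.10, 7.33, 7.93 and 7.81 in the inactivated mice, against 8.70, 8.94, 8.67 and 8.92 in the controls. Serpinf1, which encodes the secreted serpin PEDF, read 7.20, 6.24, 6.75, 7.16 and 7.23 in the inactivated mice, against 7.67, 8.45, 8.83 and 8.57 in the controls. The groups did not overlap in either gene, and inactivated mouse 2 was lowest in both. The differences were -1.15 ± 0.19 (adjusted p = 0.00148) for Timp3 and -1.47 ± 0.26 (adjusted p = 0.00185) for Serpinf1. Fap, a serine protease of the fibroblast surface, fell by 0.99 ± 0.20 (adjusted p = 0.00372). Timp2 fell by 0.66 ± 0.14 (adjusted p = 0.00459), although its second brightest probe set gave 0.26 and did not pass. Mmp2, the gelatinase that TIMP2 binds, differed by -0.37 ± 0.17 (adjusted p = 0.139) and did not pass.

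Both platelet-derived growth factor receptors fell. Pdgfra, a general fibroblast receptor, read 8.66, 7.72, 8.49, 8.65 and 8.44 in the inactivated mice, against 9.20, 9.10, 9.07 and 9.37 in the controls. No inactivated mouse reached the lowest control, inactivated mouse 2 stood below the rest, and the difference was -0.79 ± 0.18 (adjusted p = 0.00683). Its 2 dimmer probe sets gave -0.15 and 0.08 and did not pass. Pdgfrb, which pericytes share with fibroblasts, read 7.86, 7.19, 7.06, 7.66 and 7.85 in the inactivated mice, against 7.84, 8.15, 8.25 and 8.45 in the controls. Inactivated mice 1 and 5 lay just above control 1, and the difference of -0.65 ± 0.19 (adjusted p = 0.0264) lost its call without inactivated mouse 2 or without control 2, 3 or 4. Twist2, a transcription factor of dermal mesenchyme, differed by -0.13 ± 0.15 (adjusted p = 0.552) and did not pass, with overlapping groups.

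Agreement among probe sets was checked over all 107 that reported the 45 genes, of which 68 fell, 3 rose and 36 did not pass. For the genes called lower, 31 of the 50 further probe sets also fell and the other 19 did not pass. The arrays ranked alike across genes. Inactivated mouse 1 was the highest of its group in 34 of the 45 genes, and inactivated mouse 2 was the lowest in 25 and inactivated mouse 3 in 16. Control 1 was the lowest control in 32 genes, and control 3 the highest in 24. The median over the 45 genes, relative to the control mean, was -0.63, -1.35, -1.27, -0.86 and -0.93 in inactivated mice 1 to 5 and -0.34, 0.07, 0.17 and 0.15 in controls 1 to 4. The groups did not overlap in this median, and inactivated mouse 1 and control 1 were the closest pair. The median SD was 0.29 among inactivated mice without mouse 1, and 0.15 among controls without control 1. Without control 1, 35 genes fell, with a median of -1.16. Without inactivated mouse 1, 39 fell, with a median of -1.10. No share over all genes stands beside the counts with arrays left out, and the 18.9% given above was for all 9 arrays. Across the 9 arrays left out singly, 29 of the 37 falls passed every time.

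The sex of the mice differed between the groups. Xist and Y-linked transcripts read inactivated mice 1 and 2 as male and 3 to 5 as female, and control 1 as female and controls 2 to 4 as male. Control 1 was thus the only female control, and among controls sex and the traits of that mouse cannot be told apart. With sex as a covariate, 31 genes fell and 1 rose, with a median of -0.92, and the 6 falls that no longer passed were those of Col6a2, Col6a3, Eln, Fbln2, Thbs1 and Pdgfrb; Fbln1 no longer passed among the rises. Among males alone, 2 inactivated and 3 control, 29 genes fell and the median was -1.15. In 35 genes both inactivated males lay below all control males. The share of all genes so separated was not counted, and the 17.6% given above was for 5 against 4 mice. Groups of fewer mice separate more often by chance. No share over all genes stands beside the counts of falls in this paragraph. Among females alone, 3 inactivated and 1 control, limma with Benjamini-Hochberg adjustment called 0 genes lower, 19 were lower at an unadjusted p of 0.05, the median was -0.63, and 40 differences were negative, among them all 37 genes that fell in the full comparison. A test of whether the difference depended on sex rested on 1 female control: limma's interaction term called 0 of the 45 genes after adjustment (lowest adjusted p 0.830) and 8 at an unadjusted p of 0.05, and it called 2 of all 45037 probe sets, so it says little on whether the sexes differed.

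**Figure D4:**
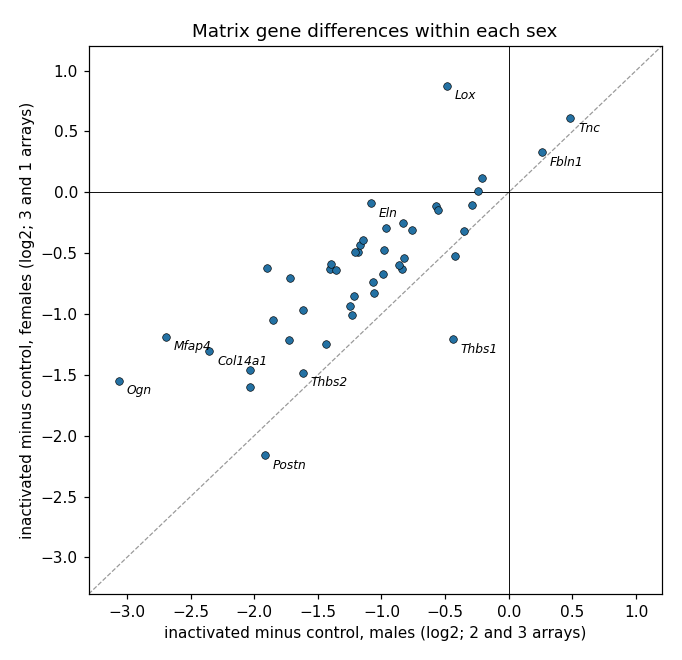
Each point is 1 of the 45 genes; the horizontal axis is the difference, inactivated minus control, among males and the vertical axis the same among females, both on the log2 scale, with the line of equality dashed. Most points lie above the line, with smaller falls among females, where the comparison rests on 1 control. Postn (-1.92 among males, -2.16 among females) and Thbs1 (-0.44 and -1.21) lie below it. Lox (-0.49 and 0.88), Fbln5 (-0.24 and 0.009) and Twist2 (-0.21 and 0.12) differ in sign.

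Other fibroblast matrix genes outside the 47 were also measured. Of these 35 genes, 19 fell and 2 rose, with a median of -0.45. Smoc2, a secreted matricellular protein, had the largest fall of this list: it read 7.59, 6.26, 6.48, 6.62 and 6.84 in the inactivated mice, against 8.86, 9.82, 10.39 and 10.04 in the controls, a difference of -3.02 ± 0.32 (adjusted p = 8.51e-05) or 8.12-fold. Thbs3, a thrombospondin, fell by 1.89 ± 0.12 (adjusted p = 5.15e-06). Sod3, the extracellular superoxide dismutase, fell by 1.92 ± 0.18 (adjusted p = 4.01e-05), and Ltbp4, which stores latent transforming growth factor beta on elastic fibres, fell by 1.31 ± 0.12 (adjusted p = 3.22e-05). The 2 that rose were Col18a1, at 0.41 ± 0.11 (adjusted p = 0.0142), and Col13a1, at 0.56 ± 0.17 (adjusted p = 0.0273), collagens of basement membranes and of cell surfaces that keratinocytes also make.

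Of 26 measured collagen modification enzymes, 14 fell and 2 rose, with a median of -0.43. Plod2, the lysyl hydroxylase that prepares collagen for stable crosslinks, ran against the list. It read 7.12, 6.81, 6.73, 7.37 and 6.09 in the inactivated mice, against 3.40, 3.69, 3.71 and 3.41 in the controls, with no overlap. Its difference was 3.27 ± 0.22 (adjusted p = 5.19e-06), a 9.68-fold rise. The control values of Plod2 lay below the array medians of 4.34 to 4.42, so the size of this fold rests on dim readings. P4hb, the protein disulfide isomerase subunit of prolyl hydroxylase, rose by 0.47 ± 0.07 (adjusted p = 0.000446). Pcolce2, the paralog of Pcolce, fell by 2.08 ± 0.27 (adjusted p = 0.000286), and the prolyl hydroxylases P4ha2 and P3h2 fell by 0.89 ± 0.10 (adjusted p = 0.000138) and 0.65 ± 0.08 (adjusted p = 0.000172). Many of these enzymes are made by most cell types, keratinocytes included, so a level here is not one of fibroblasts alone.

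Among 14 further matrix proteases and uptake receptors, 6 fell and 2 rose, with a median of -0.36. Mrc2, the endocytic collagen receptor of fibroblasts, fell by 0.92 ± 0.16 (adjusted p = 0.00179), and Mmp23 fell by 1.12 ± 0.23 (adjusted p = 0.0048). The serine proteases Htra1 and Htra3 differed by -0.52 ± 0.11 (adjusted p = 0.00508) and -0.76 ± 0.20 (adjusted p = 0.0151). Mmp3, the metalloproteinase stromelysin 1, rose: it read 9.35, 8.46, 8.74, 8.86 and 8.28 in the inactivated mice, against 7.27, 7.70, 8.28 and 8.15 in the controls, where inactivated mouse 5 and control 3 nearly met. Its difference was 0.89 ± 0.24 (adjusted p = 0.019), and that of Adamts1, a versican-cleaving protease, was 0.56 ± 0.15 (adjusted p = 0.0175).

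Of 16 measured ligands, receptors and induced genes of the transforming growth factor beta and platelet-derived growth factor pathways, 8 fell and the other 8 did not pass, with a median of -0.48. Pdgfb read 4.86, 4.38, 4.85, 5.15 and 5.14 in the inactivated mice, against 6.41, 6.56, 6.58 and 6.53 in the controls, with a wide gap between the groups. Pdgfc is another ligand of these receptors. The differences were -1.64 ± 0.14 (adjusted p = 2.61e-05) for Pdgfb and -1.71 ± 0.15 (adjusted p = 3e-05) for Pdgfc. Tgfb3, a ligand, fell by 1.14 ± 0.22 (adjusted p = 0.00303). Tgfbi, a secreted matrix protein named for its induction by this pathway, fell by 0.97 ± 0.15 (adjusted p = 0.000744). The induced genes Ccn1 and Ccn2 did not pass and differed in sign. Their differences were 0.93 ± 0.36 (limma adjusted p = 0.0765) for Ccn1 and -0.94 ± 0.40 (limma adjusted p = 0.108) for Ccn2. Ccn1 and Ccn2 were chosen for display after their values were seen.

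Fibroblast genes that are not matrix were lower too: 14 of 28 measured fell and 1 rose, with a median of -0.57. Thy1, a surface marker of fibroblasts that T cells share, read 8.11, 7.41, 7.70, 7.86 and 8.14 in the inactivated mice. It read 9.07, 9.52, 9.57 and 9.50 in the controls. Its difference was -1.57 ± 0.16 (adjusted p = 6.58e-05), without overlap. Prrx1, a transcription factor of skin mesenchyme, fell by 1.17 ± 0.17 (adjusted p = 0.000682). Cd34, a marker of reticular fibroblasts that follicle stem cells and vessels share, fell by 1.30 ± 0.22 (adjusted p = 0.00143), and Clec3b, which encodes tetranectin, fell by 2.60 ± 0.36 (adjusted p = 0.00044). Dpp4 rose by 0.55 ± 0.13 (adjusted p = 0.00816). The summed signal of this list was 3134 to 5011 in the inactivated mice and 5952 to 7907 in the controls, in linear units, and that of the 45 matrix genes 16663 to 27929 and 31069 to 48156. Of 12 papillary and follicle-associated fibroblast genes 5 fell, led by the Wnt inhibitor Apcdd1 at -1.76 ± 0.17 (adjusted p = 4.8e-05), and 7 did not pass, with a median of -0.30. Their sum was 551 to 894 in the inactivated mice and 1462 to 1843 in the controls, where Apcdd1 made up 64.7% of it. Without Apcdd1 the sums were 308 to 436 in the inactivated mice and 565 to 634 in the controls. Of the 7 that did not pass, Alx4, Corin, Hhip, Lef1, Rspo3 and Sox2 had group means of 1.61 to 3.82, below every array median. Of 7 myofibroblast genes 4 fell, among them Tagln at -0.92 ± 0.16 (adjusted p = 0.00206), and Pdpn, which keratinocytes can also express, rose at 0.50 ± 0.15 (adjusted p = 0.0288); the sum was 1292 to 1689 in the inactivated mice and 1857 to 2002 in the controls, but without Cnn2, its brightest gene, the groups overlapped at 747 to 1186 and 1020 to 1215.

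Other cell types of the skin did not all move with the fibroblast genes. As background for the counts below, 18.9% of all genes fell and 15.5% rose. Of 17 endothelial genes 1 fell and 2 rose, with a median of 0.03 and a summed signal of 924 to 1481 in the inactivated mice and 970 to 1273 in the controls. Lyve1, a receptor of lymphatic vessels and of some macrophages, had a difference of 1.99 ± 0.24 (adjusted p = 0.000205), and Vwf, a vessel marker, one of -0.66 ± 0.18 (adjusted p = 0.018). Smooth muscle and pericyte genes fell in 8 of 12, with a median of -0.59 and a sum of 922 to 1325 in the inactivated mice, against 1366 to 1555 in the controls. Macrophage genes fell in 7 of 12, with a median of -0.56 and a sum of 4366 to 7874 in the inactivated mice, against 8102 to 10164 in the controls; without Lyz2, its brightest gene, the groups overlapped at 3257 to 5913 and 5775 to 7015. Csf1r, the receptor that macrophages need to survive, differed by -0.82 ± 0.14 (adjusted p = 0.00153). Mast cell genes rose in 3 of 8, with a median of 0.17 and a sum of 773 to 1455 in the inactivated mice and 1017 to 1134 in the controls. Melanocyte genes rose in 5 of 6, with a median of 1.65 and a sum of 285 to 633 in the inactivated mice and 199 to 237 in the controls. The part of these cell types in the matrix differences was not tested.

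**Figure D5:**
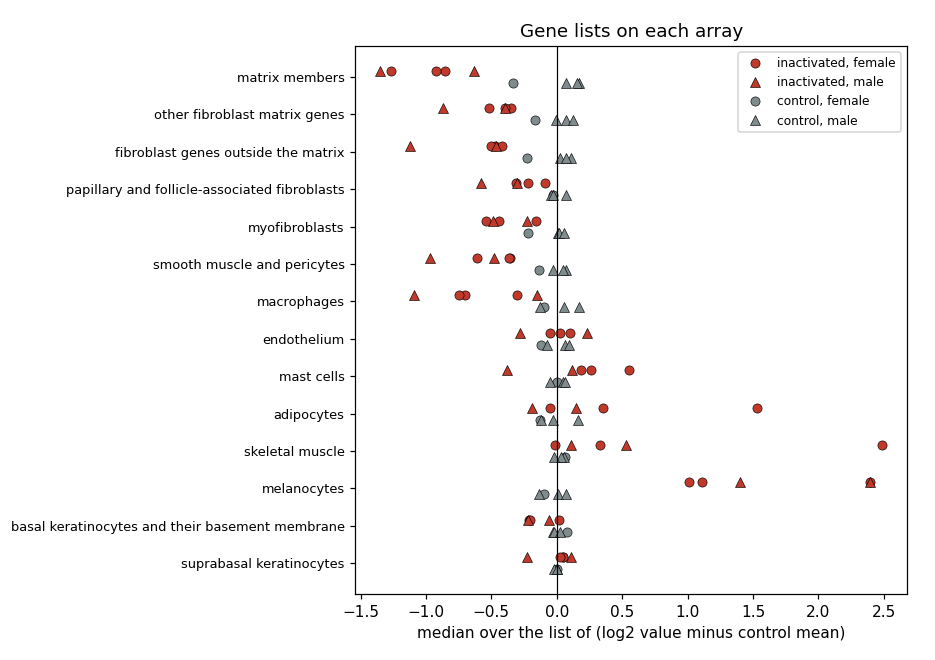
Each point is 1 mouse, red for the 5 inactivated mice above grey for the 4 controls in each row, with circles for females and triangles for males; the horizontal axis is the median, over the genes of a list, of the log2 value minus the control mean. The 2 groups are apart in the matrix genes, other fibroblast matrix genes and fibroblast genes outside the matrix. They are also apart in smooth muscle and melanocytes and, by a narrow gap, in papillary fibroblasts and macrophages. They are mixed in myofibroblasts, endothelium, mast cells and keratinocytes. Inactivated mouse 4 stands alone in skeletal muscle and adipocytes.

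Markers of the epidermis itself were bright in both groups, with summed signals that overlapped. The sum over 11 genes of basal keratinocytes and their basement membrane was 23530 to 26441 in the inactivated mice and 24204 to 25798 in the controls, with a median difference of -0.07; without Krt14, its brightest gene, the sums did not overlap, at 14856 to 17570 in the inactivated mice and 17995 to 18839 in the controls. Within that list 5 genes fell and 1 rose: Col7a1, the anchoring fibril collagen, fell by 1.27 ± 0.09 (adjusted p = 6.52e-06), Col17a1 fell by 0.91 ± 0.14 (adjusted p = 0.00069) and Dst fell by 1.11 ± 0.10 (adjusted p = 2.55e-05), and Krt14 rose by 0.47 ± 0.06 (adjusted p = 0.000445). The sum over 10 suprabasal genes was 49624 to 61670 in the inactivated mice and 57567 to 58100 in the controls, and 1 of them passed, Dsc1, at 0.64 ± 0.08 (adjusted p = 0.000174). Skeletal muscle genes were high on 1 array, inactivated mouse 4, with a sum of 1512, against 137 to 231 on the other 8, and adipocyte genes were highest there too. Without that mouse 33 matrix genes fell, and without both it and control 1, 34 fell, with medians of -1.05 and -1.16. The share over all genes in these fits is not given here. In these lists, 2 of 12 skeletal muscle and 1 of 8 adipocyte genes rose. Over all genes 15.5% rose and 18.9% fell, which is the background for these counts and those that follow. Of 8 hair follicle genes 1 fell and 2 rose, with a median of 0.10. Their sum was 2692 to 4913 in the inactivated mice and 6328 to 6593 in the controls, where Krt79 made up 96.8% of it, and without Krt79 the groups overlapped at 177 to 383 and 183 to 229. Of 5 Schwann cell genes 1 fell and 1 rose, with a median of 0.09. Their sum was 684 to 763 in the inactivated mice and 920 to 1058 in the controls, where Egr2 made up 73% of it, and without Egr2 the groups overlapped at 248 to 311 and 257 to 272. Of 5 sebaceous gland genes limma called 0 after adjustment, and 0 rose and 2 fell at an unadjusted p of 0.05, with a sum of 2722 to 7164 in the inactivated mice and 5653 to 6787 in the controls. Of 3 red blood cell genes 1 rose, near background everywhere, with sums of 29 to 32 in the inactivated mice and 25 to 31 in the controls.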

How the data were processed

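RNA of 9 epidermal samples, 5 inactivated and 4 control, was hybridised to Affymetrix mouse arrays after priming at the 3' end, per the labels' protocols. The authors deposited 1 table of log2 values for 45037 probe sets; the submitters' processing notes name affy, an R package for such arrays, while its version, the background correction and the normalization were not given in the sources used here. The log base is not stated, and values were read as log2 because array maxima of 13.47 to 13.53 are too high for natural logarithms of scanner values. No read depth applies to arrays, and their number limits the precision.

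Probe sets with exactly 1 symbol (34945) were used, and a gene was its probe set with the highest mean. Groups were compared on the deposited values with limma 3.58.1 in R 4.3.3 (lmFit and eBayes, two-sided, no covariates, 7 residual degrees of freedom), with Benjamini-Hochberg adjustment over all probe sets. The steps were tested on simulated data. The labels number the mice as biological replicates, and all 9 columns were assigned to a mouse by its title. The labels state no sex, so it was taken from Xist (above 8 on the log2 scale in females) and Y-linked probe sets.

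Members and gene lists (20 lists of 274 other genes, 255 of them measured) were chosen with earlier results of these data known. Values per mouse are given for the 2 members of each role with the lowest adjusted p, for members that passed against the median of all members, and for members that missed the threshold with a log2 difference of at least 0.5; of the other lists, up to 4 genes with the lowest adjusted p and up to 2 that passed against the list were eligible. Lists are described by counts and medians, with no test of the list. Summed signals are sums of 2 to the power of the log2 value. Alternatives were other normalizations, filters on dim probe sets, variance models, choices of probe set, a threshold of 0.01, the replicate number as a block, sex as a covariate and leaving out each array; the comparisons within each sex, the interaction with sex and the joint removal of inactivated mouse 4 and control 1 were chosen after seeing the data.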

Additional observations from a re-analysis of the deposited data

Results flagged for a closer look

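Dixon's test divides the gap between the lowest or highest value and its nearest neighbour by the range of the group. Chance takes this ratio above the critical value in about 1 in 20 sets. Within groups, 15 of the 90 sets of values (45 genes in 2 groups) held 1 mouse whose ratio exceeded it. In 8 of the 15 this was control 1, below the other controls: Col5a2 at 9.56, Dcn at 11.43, Lum at 10.80, Bgn at 9.34, Ogn at 5.29, Dpt at 9.24, Mfap4 at 8.14 and Loxl1 at 7.00 (log2 values). Inactivated mouse 1 stood above its group in Col1a2 at 12.24, Col6a2 at 9.35, Col15a1 at 6.62, Thbs1 at 7.62 and Fstl1 at 9.76. Inactivated mouse 2 stood below its group in Fbln5 at 6.76 and Pdgfra at 7.72. The genes share arrays, so these cases are not independent of each other.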

How the results depend on the processing

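Of the 37 falls, all kept their direction under all 24 alternatives, and 34 to 37 also passed under the other normalizations (35 with quantile, 34 with cyclic loess, 36 with array medians subtracted), the filters, the variance models, the removal of ambiguous probe sets, and, with 34 of the 37, the mean of all probe sets. At an adjusted p of 0.01, limma called 29 members lower and 0 higher, against 37 and 2 at an adjusted p of 0.05. At an unadjusted p of 0.05 these counts were 38 and 2. Over all genes 1526 rose and 2179 fell at an adjusted p of 0.01, against 2816 and 3434 at an adjusted p of 0.05. Leaving out single arrays gave 29 to 39 falls and 0 to 2 rises. Rises numbered 1 with the mean of probe sets and 1 with sex as a covariate. Among males rises numbered 0 (0 unadjusted), and over all genes 1874 rose; among females falls numbered 0 (19 unadjusted) and rises 0 (1 unadjusted), with 0 of all genes in either direction. Without control 1 and inactivated mouse 4 together, rises numbered 0 (1 unadjusted). The replicate block, run on the 4 shared numbers and so without inactivated mouse 5, gave 30 falls and 0 rises (37 and 1 unadjusted). Same-numbered mice correlated at -0.27 to 0.08, and mice of different numbers at -0.11 to 0.15. No pairing by number was seen, but whether the numbers pair the samples cannot be settled from these 4 pairs.

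Collagen VI had 2 falls, but 1 with cyclic loess and 0 with the replicate block, with sex as a covariate or among males; elastic fibre proteins had 5 and then 3 with the replicate block or with sex. Among males, 4 macrophage genes and 5 growth factor pathway genes fell, against 7 and 8. Genes that did not pass changed sign: Fmod was 0.0296 with ambiguous probe sets left out. The Fbln5 difference was 0.0478 with quantile normalization, 0.0360 with cyclic loess, 0.0249 with array medians subtracted, 0.0216 with array weights, 0.0135 with the mean of probe sets, 0.00935 among females, 0.0113 without control 1 and inactivated mouse 4, and -0.10 to 0.15 without single arrays. The Lox difference was -0.49 among males, -0.13 without control 1 and inactivated mouse 4, and -0.0666 to 0.42 without single arrays. Twist2 was 0.12 among females. Where an alternative does not use fewer samples or a stricter threshold, the cause was not tested.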
